A study of Mus musculus with 9 samples.

Results

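Apolipoproteins are the protein parts of the particles that carry fat and cholesterol in blood, and this account follows 10 genes of that system in mouse liver: Apoa1, Apoa2, Apoa4, Apoa5, Apob, Apoc2, Apoc3, Apoe, Apom and Mttp. They were chosen by name, with earlier results of these data known. Their probes were found by matching the RefSeq accession printed for each non-control probe to a gene symbol. All 10 genes had a probe, of 20972 genes named on the array, and they were read by 12 probes because Apoa2 and Apob have more than 1. All 12 probes were well above background on all 9 arrays and all were tested, among 26278 probes tested in total.

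The liver builds very low density lipoprotein by loading lipid onto Apob, a step that needs the microsomal transfer protein encoded by Mttp. Apoa1 and Apoa2 are the main proteins of high density lipoprotein. Apoc2 activates lipoprotein lipase, Apoc3 inhibits it and slows clearance, Apoa5 promotes it, and Apoe is the ligand by which remnant particles are taken up. Apoa4 is known mainly as an intestinal apolipoprotein made during fat absorption, and mouse liver also makes it.

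Liver RNA of 20-week-old males was read on Agilent arrays in a single colour, with 1 array per mouse and 3 mice in each of 3 groups. STAM-NON mice were STAM mice without treatment, STAM-INS mice were STAM mice given insulin, and Normal mice carried neither the model nor a treatment. STAM mice, a model of diabetes with steatohepatitis and liver cancer, are made by injecting newborn males with streptozotocin, which destroys insulin-secreting cells, and then feeding a high-fat diet, so that the drug and the diet are shared by STAM-NON and STAM-INS and differ together from Normal. Per the study's methods the mice were of the C57B/6 J background, insulin was a long-acting analogue injected under the skin, and mice outside the STAM and obesity models ate ordinary chow. Whether the liver pieces held tumour is not given in the sources used here, and in whole liver fewer cells of a type and less RNA per cell cannot be told apart.

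Signals are given below as centred log2 signal, the log2 of a probe's signal with the array's own 75th percentile subtracted, and levels are compared between groups for 1 probe, never between probes. The share of spots well above background ran from 46.2% to 65.0% across arrays, no spot was saturated, and arrays of 1 group correlated at r between 0.98 and 0.99 over tested probes. All 6 STAM arrays lay on 1 slide and all 3 Normal arrays on another with its own scan, so slide and scan cannot be told apart from the difference between STAM and Normal. STAM-NON against STAM-INS lies within 1 slide, but the rows of the slide differ with the group too. All 3 STAM-NON arrays and STAM-INS replicate 1 were in row 1, and STAM-INS replicates 2 and 3 and all 3 Normal arrays were in row 2. The 8 hepatocyte markers examined were well above background on every array, and their summed level, in multiples of the 75th percentile signal, was 7083 to 7464 in Normal, 4973 to 6482 in STAM-NON and 6242 to 6912 in STAM-INS.

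Apoa4, Apoa1, Apoc3 and Apoa5 are neighbours on chromosome 9, in the order Apoa1, Apoc3, Apoa4, Apoa5 with no other gene between them in RefSeq. Because the results below differ between these neighbours, the 250 bases before the start of each are shown for the 3 that the RefSeq promoter table holds (GRCm38.p6, plus strand, 5′ to 3′). They are chr9:46240594-46240843 for Apoa4, chr9:46228380-46228629 for Apoa1 and chr9:46268358-46268607 for the first of the 2 starts of Apoa5. Capitals mark matches on either strand to any of 5 motifs.
Apoa4: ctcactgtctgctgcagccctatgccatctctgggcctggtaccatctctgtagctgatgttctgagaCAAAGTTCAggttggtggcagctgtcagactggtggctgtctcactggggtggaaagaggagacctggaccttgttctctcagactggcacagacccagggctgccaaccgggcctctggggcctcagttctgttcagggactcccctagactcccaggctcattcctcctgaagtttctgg
Apoa1: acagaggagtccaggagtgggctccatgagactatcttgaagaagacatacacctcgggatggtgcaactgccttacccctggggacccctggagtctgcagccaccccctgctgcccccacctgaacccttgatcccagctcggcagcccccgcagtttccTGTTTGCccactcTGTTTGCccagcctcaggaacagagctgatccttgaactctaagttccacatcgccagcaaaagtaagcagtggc
Apoa5: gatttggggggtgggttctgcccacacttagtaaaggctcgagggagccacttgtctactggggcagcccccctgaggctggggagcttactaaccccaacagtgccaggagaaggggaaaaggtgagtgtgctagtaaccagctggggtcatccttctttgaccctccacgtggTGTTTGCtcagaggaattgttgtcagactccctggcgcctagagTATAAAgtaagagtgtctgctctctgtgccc
The TATA box was searched as TATAAA, which 12.4% of 32851 promoter windows of the same length held. The pentamer bound by the factor NF-Y was searched as CCAAT, held by 33.8% of them. The nuclear receptor hexamer was searched as AGGTCA, held by 14% of the windows. The Hnf4-type direct repeat was searched as CAAAGTNCA, held by 1.19% of the windows. The forkhead motif was searched as TGTTTNC, held by 17.8% of the windows. The motifs were chosen with these sequences in view, and no match overlapped another in the 3 windows. The Apoa4 window held the Hnf4-type repeat, 182 to 174 bases before the start, and none of the other 4. The Apoa1 window held the forkhead letters at 88 and at 75 bases before the start, and the Apoa5 window held them at 75 bases with a TATA box at 31 bases. These matches describe the letters of the windows and nothing measured here bears on whether a factor binds them.

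The question for the first comparison was which of these genes differ between untreated STAM liver and Normal liver. Apoa4 was the 1 gene of the 10 that passed the test. Its centred log2 signal was 3.04, 3.03 and 3.50 in the 3 Normal mice and 7.19, 5.19 and 7.32 in the 3 STAM-NON mice. The groups did not overlap, and the lowest STAM-NON mouse stood well above the highest Normal mouse. Apoa4 was higher in STAM-NON by 3.38 (SE 0.65, 10.4-fold, 95% interval 1.89 to 4.87, n = 3 against 3, limma adjusted p = 0.0174). By size of difference it stood at rank 83 of the 26278 probes. One member probe of 12 was therefore called, beside 16.1% of all tested probes called in this comparison, so the share of member probes called was not above that background.

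**Figure D1:**
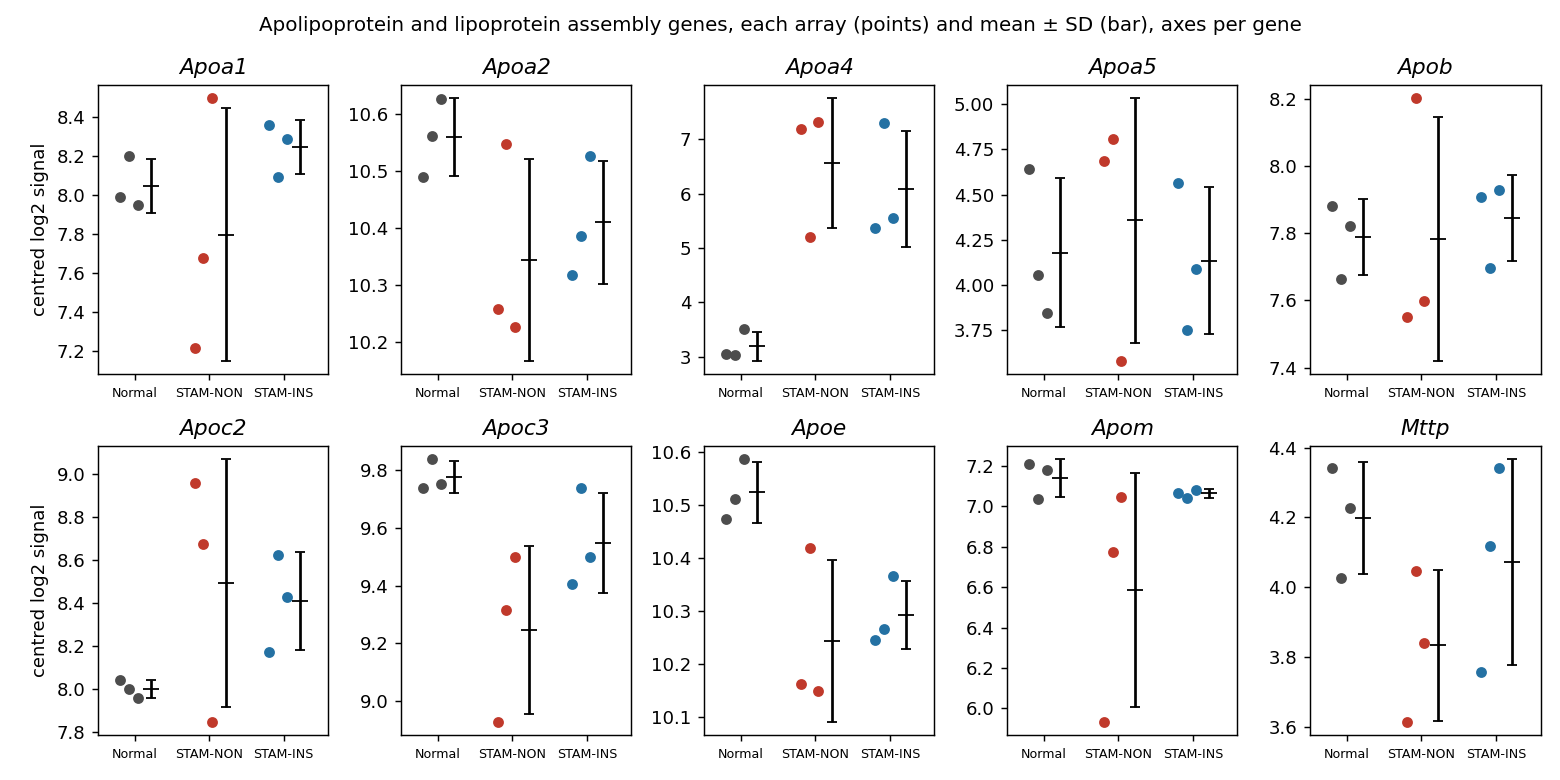
Centred log2 signal (y axis, scaled per gene) of the 10 genes, 1 panel each, with 1 point per mouse and the mean ± SD (n = 3) to the right of each group's points. Apoa4 runs from 3.03 to 3.50 in Normal and from 5.19 to 7.32 in the STAM groups, while the groups of most other genes overlap or lie close together.

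The Apoa4 call held in 16 of 24 alternative settings. It ended with the slide row as a block (difference 4.44, limma adjusted p = 0.185), where STAM-NON and Normal are linked through STAM-INS replicate 1 alone, with no filter on dim probes (0.0735) and by the methods' t-test after Benjamini-Hochberg adjustment (0.0972). It also ended when STAM-NON replicate 1 was left out (difference 3.07, limma adjusted p = 0.0553), when STAM-NON replicate 3 was left out (3.0, 0.051), and when Normal replicate 1, 2 or 3 was left out (3.30, 3.30 and 3.53, adjusted p 0.0558, 0.0571 and 0.053). Under the 5 other ways of scaling the arrays it was called each time, at 3.22 to 3.65.

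Among 13385 other genes, the 3 whose centred log2 signal followed Apoa4 most closely over the 9 arrays were Tmsb4x (r = 0.997), an actin-binding peptide abundant in blood cells, Clec4n (r = 0.996), a lectin receptor of myeloid cells, and Pla2g4a (r = 0.996), a phospholipase that releases arachidonic acid. Within the 6 STAM arrays the correlations were 0.996, 0.988 and 0.997. These values are descriptions of 9 arrays that share a scaling, and the gap between Normal and STAM adds to the first of them. Clec4n was 0.45, 0.24 and 0.62 in Normal, 2.69, 1.57 and 2.87 in STAM-NON, and 1.81, 2.81 and 1.64 in STAM-INS. Since these 3 genes were picked for following Apoa4 on these arrays, the shared order of the mice is what the choice fixed. The summed level of the 7 macrophage markers measured was 56.7 to 93.3 in Normal, 110 to 216 in STAM-NON and 95.3 to 240 in STAM-INS, with all 7 well above background on every array. Of these 7, 1 was called in STAM-NON minus Normal, the Kupffer cell receptor Clec4f, higher by 0.97 (SE 0.26, limma adjusted p = 0.042), and the median difference of the 7 was 0.92. Csf1r (mean 5.20 in Normal, 6.06 in STAM-NON, 5.90 in STAM-INS) and Marco (3.54, 5.61 and 5.23) make up most of the macrophage sum. Neither was called in any comparison. Markers of other cells also differed. Of 4 bile duct markers tested 3 were called higher in STAM-NON than in Normal, namely Sox9, Spp1 and Krt7. Krt7 was well above background on 7 of the 9 arrays, which included every STAM array but not every Normal array. It entered the test only through the STAM groups, so its difference from Normal is not read as a result. The median difference of the 4 markers, Krt7 included, was 1.23. The list's summed level was 1.58 to 2.84 in Normal, 3.68 to 9.21 in STAM-NON and 3.49 to 5.41 in STAM-INS. None of 6 stellate cell markers was called, at a median difference of 0.52, with sums of 68.1 to 76.3 in Normal, 79.3 to 122 in STAM-NON and 61.8 to 72.6 in STAM-INS. Of 3 pancreas markers tested, Cela1 was higher, at 2.63 (SE 0.52, limma adjusted p = 0.018), with Ctrb1 lower, at -0.78 (SE 0.17, limma adjusted p = 0.0254), while Pnlip and Cpa1 were not well above background on any array. The summed level of 4 erythroid markers was 96.25 to 107 in Normal, 53.1 to 362 in STAM-NON and 70.5 to 487 in STAM-INS. None of the 3 that could be tested was called in any comparison. The part of any of these cells in the Apoa4 difference was not tested.

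**Figure D2:**
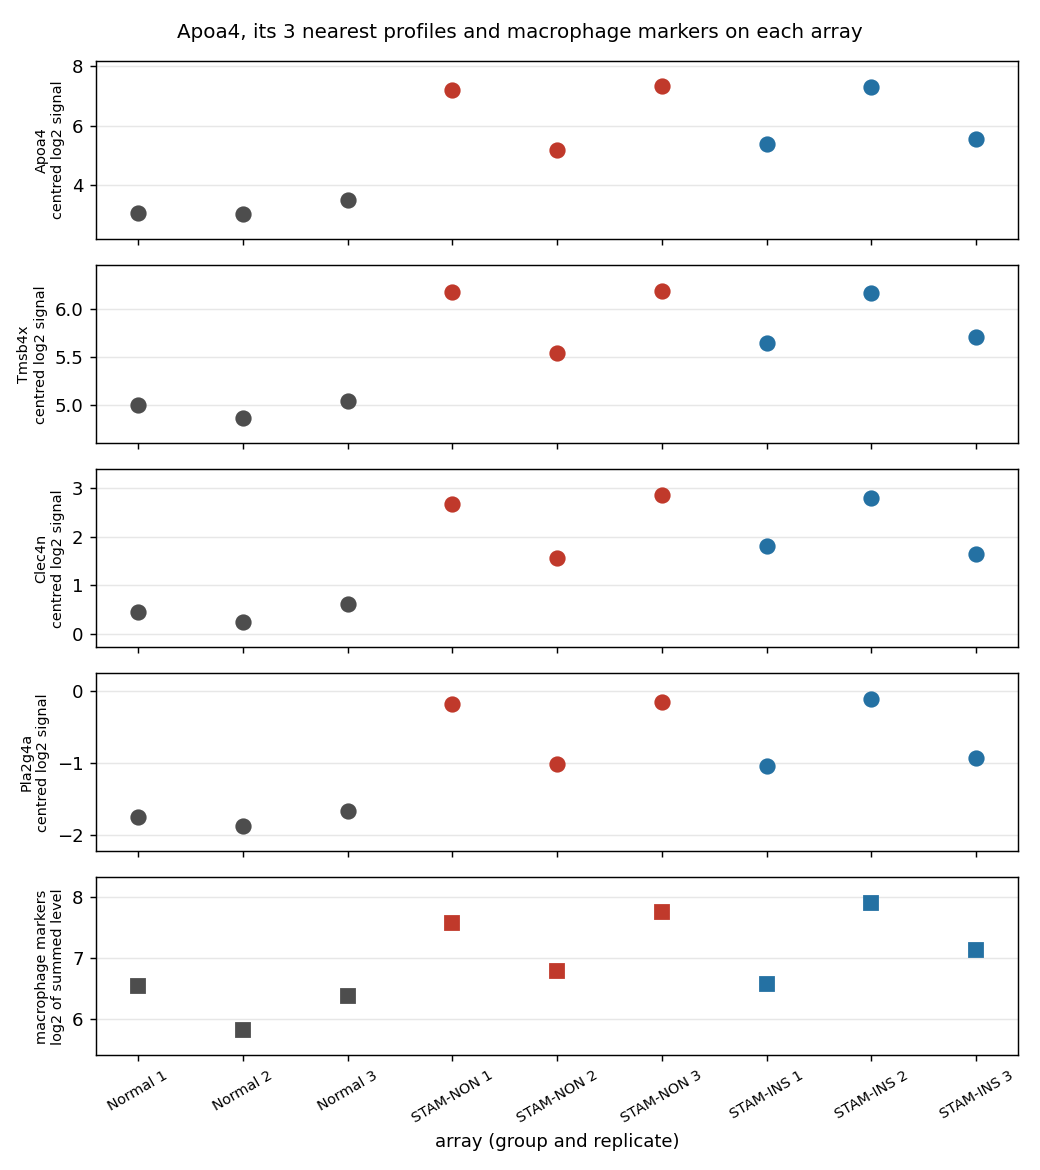
Centred log2 signal of Apoa4, Tmsb4x, Clec4n and Pla2g4a, and log2 of the summed level of 7 macrophage markers (y axes), on each of the 9 arrays (x axis, coloured by group). In all 5 panels STAM-NON 1, STAM-NON 3 and STAM-INS 2 are the highest arrays, with Apoa4 at 7.19, 7.32 and 7.30. Tmsb4x, Clec4n and Pla2g4a were picked for following Apoa4 on these arrays, which fixed this order for them.

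Markers of absorptive enterocytes, the cells that make Apoa4 in the intestine, were read on the same arrays. The digestive enzymes Lct, Alpi and Sis were not well above background on any of the 9 arrays. Of the 8 enterocyte markers 4 could be tested. The glucose transporter Slc5a1 was well above background on 5 of the 9 arrays. These included every STAM-INS array, not every STAM-NON array and no Normal array. It entered the test only through STAM-INS, so its difference from Normal is not read as a result. The brush border protein Cdhr5 was lower in STAM-NON than in Normal by 0.67 (SE 0.14, limma adjusted p = 0.0235). The summed level of the list was 126 to 157 in Normal, 122 to 189 in STAM-NON and 146 to 162 in STAM-INS. Fabp2 (mean 6.20 in Normal, 6.58 in STAM-NON, 6.46 in STAM-INS) and Anpep (5.81, 5.77 and 5.82) were well above background on all 9 arrays. Neither was called in any comparison, and they make up most of this sum.

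The genes of high density lipoprotein gave smaller differences. Apoa1 was 7.99, 8.20 and 7.95 in Normal and 7.21, 7.68 and 8.50 in STAM-NON. The STAM-NON mice lay on both sides of the Normal mice, and the difference was -0.25 (SE 0.28, 95% interval -0.90 to 0.40, limma adjusted p = 0.549). The probe of Apoa2 with the higher signal was 10.49, 10.56 and 10.63 in Normal and 10.26, 10.55 and 10.23 in STAM-NON, a difference of -0.22 (SE 0.12, limma adjusted p = 0.241). The other Apoa2 probe gave -0.31 (SE 0.12, limma adjusted p = 0.1), and there the groups did not overlap. Without STAM-NON replicate 2 it was -0.41 and passed the test (limma adjusted p = 0.0324). This probe was called in 2 of 24 alternatives. Under the 5 other scalings it was never called and ran from -0.46 to -0.03. Apom, the carrier of sphingosine-1-phosphate on these particles, was 7.21, 7.04 and 7.18 in Normal and 5.93, 6.78 and 7.05 in STAM-NON. STAM-NON replicate 1 was far below the rest, and the difference of -0.56 (SE 0.25, limma adjusted p = 0.149) became -0.23 without that mouse. STAM-NON replicate 1 was also the array with the lowest summed level of hepatocyte markers, 4973, and with the highest level of the 5 adipocyte markers, 3.94 against 0.145 to 1.06 on the other 8 arrays. Of these 5 adipocyte markers only Cfd passed the filter for testing, and Lep was not well above background on any array. The part of tissue content in these values was not tested.

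None of the 3 modulators of lipoprotein lipase passed the test. Apoc3 was 9.74, 9.84 and 9.75 in Normal and 8.93, 9.32 and 9.50 in STAM-NON. All 3 STAM-NON mice lay below all 3 Normal mice, and the difference was -0.53 (SE 0.16, 95% interval -0.90 to -0.16), with a limma adjusted p of 0.058 that missed the threshold of 0.05. With only probes well above background on all arrays it was 0.0497, and with trended and robust variances 0.0347. Apoc3 was called in 3 of 24 alternatives. Under the 5 other scalings it was never called, and its difference ran from -0.68 to -0.26 (limma adjusted p 0.0507 to 0.356). Apoc2 was 8.04, 8.0 and 7.96 in Normal and 8.96, 8.67 and 7.85 in STAM-NON. Here 2 STAM-NON mice were above every Normal mouse and the third below them, and the difference was 0.49 (SE 0.26, limma adjusted p = 0.21). Without STAM-NON replicate 3 it was 0.81 and passed the test (limma adjusted p = 0.0357). That was the 1 call of Apoc2 in 24 alternatives, and under the 5 other scalings its difference ran from 0.34 to 0.77. Apoa5 was 4.64, 4.05 and 3.84 in Normal and 4.69, 4.81 and 3.58 in STAM-NON, with the widest spread in Normal among the 12 probes (SD 0.41, n = 3) and a difference of 0.18 (SE 0.37, limma adjusted p = 0.749).

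Apob and Mttp, the core of particle assembly, gave no call. The Apob probe with the higher signal was 7.88, 7.66 and 7.82 in Normal and 7.55, 8.20 and 7.60 in STAM-NON, a difference of -0.01 (SE 0.18, 95% interval -0.42 to 0.41, limma adjusted p = 0.986). The other Apob probe gave -0.38 (SE 0.15, limma adjusted p = 0.114), so that the probes of this gene disagreed in size, and without STAM-NON replicate 2 it was -0.54 and passed the test (limma adjusted p = 0.0226). That was the 1 call of this second probe in 24 alternatives, and under the 5 other scalings it ran from -0.54 to -0.09. Which part of the transcript each probe reads is not given in the sources used here. Mttp was 4.34, 4.03 and 4.23 in Normal and 3.62, 4.05 and 3.84 in STAM-NON, a difference of -0.36 (SE 0.18, limma adjusted p = 0.185) with overlapping groups.

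Apoe, the receptor ligand, was 10.47, 10.51 and 10.59 in Normal and 10.16, 10.42 and 10.15 in STAM-NON. The groups did not overlap, and the difference of -0.28 (SE 0.11, 95% interval -0.54 to -0.02) did not pass (limma adjusted p = 0.115), while without STAM-NON replicate 2 it was -0.37 and passed (limma adjusted p = 0.0434). Apoe was called in 2 of 24 alternatives and never under the 5 other scalings (limma adjusted p 0.0976 to 0.984). Its size depended on the scaling of the arrays, from -0.43 with arrays centred on the median to -0.01 with arrays centred on spike-in controls. Apoe reached 46.2% of the saturation value of the scanner, the highest of the 12 probes. Apoe is made by macrophages too, whose summed marker levels are given above, and their part in the Apoe level was not tested. Its neighbours on chromosome 7, in the order Apoc2, Apoc4, Apoc1, Apoe, include Apoc1 at -0.29 (SE 0.12, limma adjusted p = 0.121) and Apoc4 at -0.29 (SE 0.11, limma adjusted p = 0.102) beside Apoc2 at 0.49.

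In all, 4 of the 12 member probes had groups without overlap in this comparison (1 of Apoa2, and those of Apoa4, Apoc3 and Apoe), beside 41.2% of all tested probes. With 1 probe a gene, 3 of the 10 genes lay above 0 and 7 below, with a median difference of -0.23 against -0.11 over 13386 genes. The count of genes above 0 was 3 to 6 under the other scalings and the median ran from -0.39 to 0.04, so the direction of the group as a whole depended on the scaling. The median over all tested probes itself moved from -0.29 to 0.14 between scalings, against -0.13 in the main one. For the 8 hepatocyte markers the median in the main scaling was -0.33, with none above 0. Of these, 1 was called lower, Cps1 at -0.67 (SE 0.16, limma adjusted p = 0.0297). The part of hepatocyte content in the member values was not tested.

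The spread among mice was also wider in STAM-NON. The median SD of the 12 member probes was 0.09 in Normal, 0.33 in STAM-NON and 0.13 in STAM-INS, against 0.16, 0.23 and 0.18 over all tested probes. This is a description of 3 mice a group, and no test of the spread was made.

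**Figure D3:**
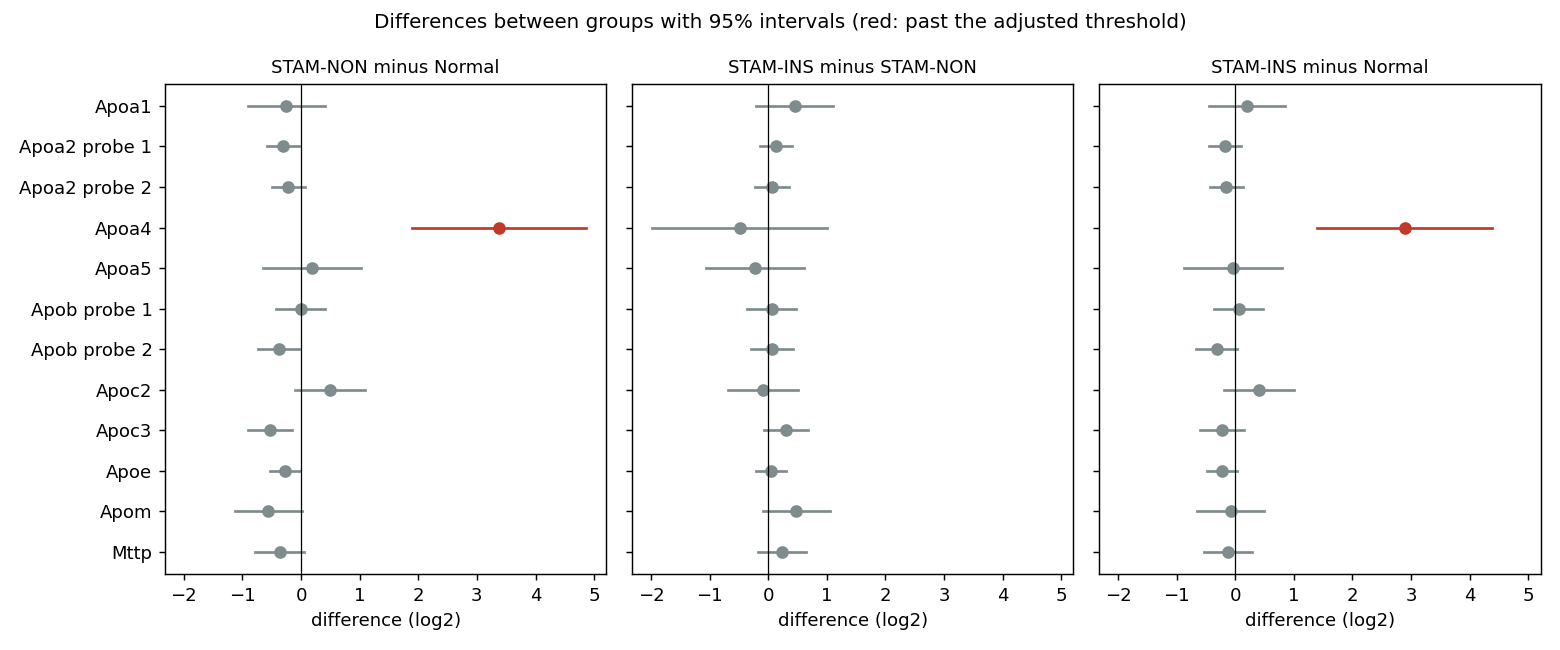
Difference between groups on the log2 scale (x axis) for each of the 12 probes (rows), with the 95% interval of the fit, in 3 panels for the 3 comparisons. Apoa4 stands at 3.38 and 2.89 in the panels against Normal, and in STAM-INS minus STAM-NON every interval crosses 0.

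The second comparison asked what insulin changed within the STAM model. None of the 12 member probes was called, beside 0.0913% of all tested probes (24 of 26278). At an unadjusted p under 0.05 none was called either by limma or by the methods' t-test. Apoa4 was 7.19, 5.19 and 7.32 in STAM-NON and 5.37, 7.30 and 5.56 in STAM-INS. Each group held mice at both ends of this range, so the groups overlapped, and the difference was -0.49 (SE 0.65, 95% interval -1.98 to 1.0, limma adjusted p = 0.868). The interval is wide enough to hold a change of either sign, and it does not show that insulin left Apoa4 as it was.

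The largest positive differences after insulin were those of Apom and Apoa1. Apom was 5.93, 6.78 and 7.05 in STAM-NON and 7.07, 7.04 and 7.08 in STAM-INS, a difference of 0.48 (SE 0.25, 95% interval -0.09 to 1.05, limma adjusted p = 0.623). The STAM-INS mice lay close together (SD 0.02, n = 3), and without STAM-NON replicate 1 the difference was 0.15. Apoa1 was 7.21, 7.68 and 8.50 in STAM-NON and 8.36, 8.09 and 8.29 in STAM-INS, a difference of 0.45 (SE 0.28, 95% interval -0.20 to 1.1, limma adjusted p = 0.688), and 0.16 without STAM-NON replicate 1. Apoc3 was 8.93, 9.32 and 9.50 in STAM-NON and 9.40, 9.74 and 9.50 in STAM-INS, a difference of 0.30 (SE 0.16, limma adjusted p = 0.635).

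The other genes differed by 0.24 or less in either direction between STAM-INS and STAM-NON. Mttp was 3.76, 4.12 and 4.34 in STAM-INS, 0.24 (SE 0.18) above STAM-NON, and Apoa5 was 4.56, 3.75 and 4.09, a difference of -0.22 (SE 0.37). Apoc2 gave -0.08 (SE 0.26), Apoe 0.05 (SE 0.11), the Apob probes 0.06 (SE 0.18) and 0.07 (SE 0.15), and the Apoa2 probes 0.07 (SE 0.12) and 0.13 (SE 0.12), with limma adjusted p from 0.753 to 0.949 over these 8 probes. No member probe had groups without overlap, beside 12.2% of all tested probes. Of the 10 genes 7 lay above 0, with a median difference of 0.06 against 0.03 over all genes, but 4 lay above 0 under quantile normalisation (median -0.02) and under spike-in centring (median -0.09), so this direction turned with the scaling.

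The third comparison set insulin-treated STAM liver against Normal liver, and it shares the Normal arrays with the first. Apoa4 was again the 1 gene called, beside 13.9% of all tested probes. It was higher in STAM-INS by 2.89 (SE 0.65, 7.40-fold, 95% interval 1.40 to 4.38, limma adjusted p = 0.026), and all 3 STAM-INS mice lay above all 3 Normal mice. The call ended without STAM-INS replicate 2 (difference 2.28, limma adjusted p = 0.0731) and without Normal replicate 1, 2 or 3 (2.81, 2.81 and 3.04, adjusted p 0.0767, 0.076 and 0.068). In this comparison the groups of Apoa4, Apoc2, Apoe, 1 Apoa2 probe and 1 Apob probe did not overlap, 5 of 12 beside 44.0% of all tested probes. Apoe was 10.25, 10.27 and 10.37 in STAM-INS, a difference of -0.23 (SE 0.11, limma adjusted p = 0.191). Apoc2 was 8.17, 8.62 and 8.43, a difference of 0.41 (SE 0.26, limma adjusted p = 0.311), and the Apob probe with the lower signal was lower by a difference of -0.32 (SE 0.15, limma adjusted p = 0.188). For Apoc3 the difference from Normal was -0.23 (SE 0.16) in STAM-INS beside -0.53 in STAM-NON, and for Apom it was -0.08 (SE 0.25) beside -0.56.

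Other genes of lipoprotein metabolism were read from 6 lists, whose counts stand beside the 16.1% of all tested probes called in STAM-NON minus Normal and 13.9% in STAM-INS minus Normal. No test compared the lists with each other or with other genes. Among 10 other apolipoproteins, none was called in any of the 3 comparisons. The nearest in STAM-NON minus Normal was Apoh, a plasma glycoprotein that binds phospholipid, at -0.51 (SE 0.15, limma adjusted p = 0.0543), named here after its value was seen. The median of this list was -0.09 in that comparison, and it ran from -0.24 to 0.21 under the 5 other scalings. With normexp 1 gene of the list was called lower there. In STAM-INS minus Normal 1 was called higher with normexp and with quantile normalisation. Among 9 genes of particle assembly and secretion 1 was lower and 8 were not called. It was Sar1b, the small GTPase of the vesicles that carry lipoprotein out of the endoplasmic reticulum, at -0.59 (SE 0.13, limma adjusted p = 0.0264) in STAM-NON minus Normal and -0.58 (SE 0.13, limma adjusted p = 0.0278) in STAM-INS minus Normal. It was called in 13 of 24 alternatives in each of these, and without any 1 of the Normal mice it was not called in either (limma adjusted p 0.0605 to 0.0878). The first call also ended without STAM-NON replicate 1 or 3 (0.0753 and 0.0652), and the second without STAM-INS replicate 1 or 2 (0.0759 and 0.091). Among 4 genes of the editing of the Apob transcript 1 was lower, the cofactor Rbm47, at -0.82 (SE 0.17, limma adjusted p = 0.0206) in STAM-NON minus Normal. The deaminase Apobec1 itself was at 0.24 (SE 0.23, limma adjusted p = 0.465).

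Of 13 lipases, transfer and export proteins tested, 1 was higher and 3 were lower in STAM-NON minus Normal. Lpl, the lipoprotein lipase that Apoc2 activates, was higher by 1.96 (SE 0.33, limma adjusted p = 0.0129), with mean levels of 1.27 in Normal, 3.24 in STAM-NON and 2.87 in STAM-INS. Macrophages are known to make Lpl, and the summed level of their markers is given above. The part of macrophage content in the Lpl difference was not tested. Pon1, an esterase carried on high density lipoprotein, was lower, at -1.10 (SE 0.18, limma adjusted p = 0.0122). Lipc, the hepatic lipase, was lower, at -0.98 (SE 0.14, limma adjusted p = 0.00856). Lmf1, which matures both lipases, was lower, at -0.55 (SE 0.14, limma adjusted p = 0.0376). Lpl, Pon1 and Lipc were called under all 5 other scalings, Rbm47 under 4, Sar1b under 3 and Lmf1 under 1 of them. Over all 24 alternatives Lpl, Pon1 and Lipc were each called in 21, Rbm47 in 15, Rxra in 14, Lmf1 in 9 and Nr1h4 in 7. Without STAM-NON replicate 1 or 3, or Normal replicate 1 or 2, the calls of Rbm47, Rxra, Lmf1 and Nr1h4 ended, at limma adjusted p from 0.055 to 0.121, and without Normal replicate 3 those of Rxra, Lmf1 and Nr1h4 ended, at 0.0728 to 0.137. Leaving out a STAM-INS mouse also ended the calls of Nr1h4 (any of the 3, 0.0507 to 0.0642) and Lmf1 (replicate 3, 0.0559). Lipc was 0.46 (SE 0.14, limma adjusted p = 0.473) higher in mean in STAM-INS than in STAM-NON with groups that did not overlap, and it did not pass.

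None of the 11 receptors and receptor regulators tested passed in any comparison. In STAM-INS minus Normal 1 of them was called higher with normexp and with spike-in centring. Their median in STAM-NON minus Normal was 0.14, and it ran from -0.02 to 0.41 under the 5 other scalings. Of 14 transcription factors and coregulators known to act on apolipoprotein genes, 2 were lower and 12 were not called in that comparison. They were Rxra, the partner of nuclear receptors, at -0.61 (SE 0.13, limma adjusted p = 0.0219), which was called under 4 of the 5 other scalings, and Nr1h4, the bile acid receptor, at -0.46 (SE 0.13, limma adjusted p = 0.0454), which kept its call under 1 of the 5 other scalings. Hnf4a, whose motif letters are in the Apoa4 window, was at -0.22 (SE 0.17, limma adjusted p = 0.373), and Creb3l3, a liver factor known to act on Apoa4, was at -0.38 (SE 0.20, limma adjusted p = 0.196). Both are named as regulators of this locus and not for their values. In STAM-INS minus STAM-NON no gene of the 6 lists passed. In STAM-INS minus Normal 3 regulators were lower, and beside Nr1h4 these were Ppara, the fatty acid sensor, at -0.86 (SE 0.19, limma adjusted p = 0.0229), and Foxo1, which insulin restrains, at -0.64 (SE 0.16, limma adjusted p = 0.0326), both named after their values were seen. The count of regulators called lower in that comparison depended on the scaling. It was 2 with normexp and with the median, 1 with quantile and with detected probes, and 0 with spike-in centring.

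The lipase list in STAM-INS minus Normal again had 1 gene higher and 3 lower. Lpl was higher by 1.60 (SE 0.33, limma adjusted p = 0.0198), a call lost without STAM-INS replicate 2 or any 1 Normal mouse (limma adjusted p 0.0549 to 0.0706). Angptl4, an inhibitor of lipoprotein lipase, was lower, at -1.51 (SE 0.31, limma adjusted p = 0.019), and is named after its value was seen. Pon1 was lower, at -1.01 (SE 0.18, limma adjusted p = 0.0123), and Lipc was lower, at -0.52 (SE 0.14, limma adjusted p = 0.0444). Lipc was called in 11 of 24 alternatives there and lost its call without any 1 STAM-INS or Normal mouse (limma adjusted p 0.0725 to 0.139). Rbm47 was lower, at -1.05 (SE 0.17, limma adjusted p = 0.00875), and was called in 23 of 24. Nr1h4 was lower, at -0.51 (SE 0.13, limma adjusted p = 0.0364), was called in 11 of 24 and lost its call without STAM-INS replicate 1 or 2 or any 1 Normal mouse (limma adjusted p 0.0636 to 0.122).

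**Figure D4:**
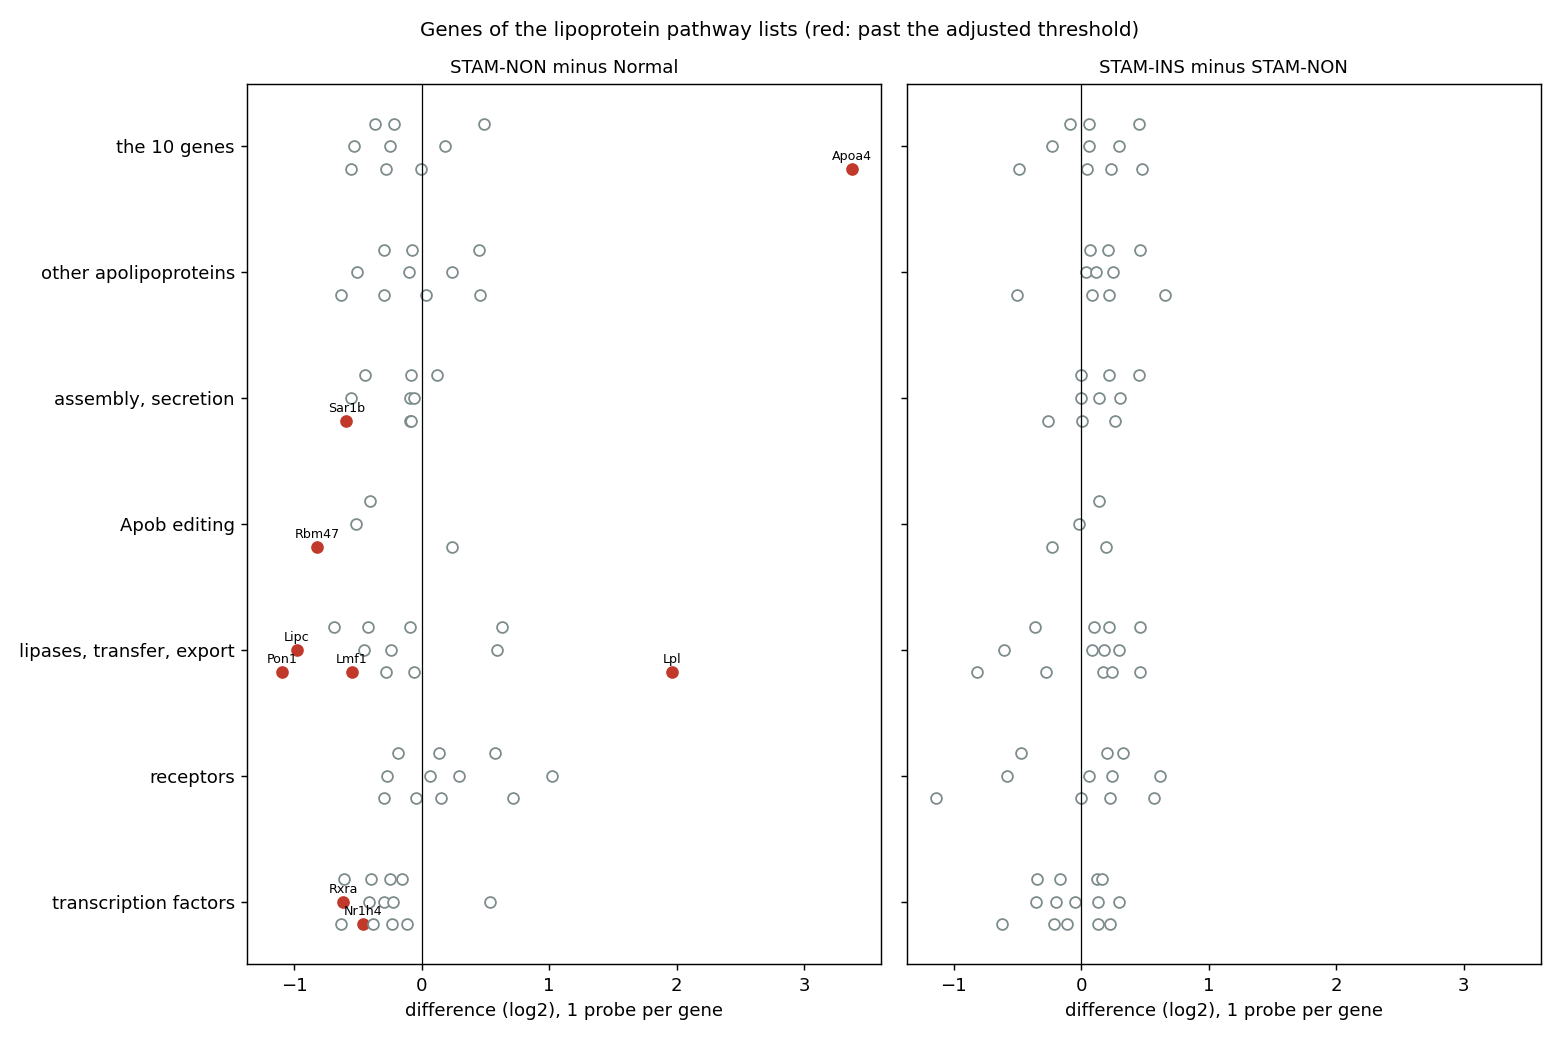
Difference on the log2 scale (x axis, 1 probe per gene) for the genes of 7 lists (rows), in STAM-NON minus Normal on the left and STAM-INS minus STAM-NON on the right, with genes past the adjusted threshold filled and named. In STAM-NON minus Normal, Apoa4 at 3.38 and Lpl at 1.96 are the filled genes above 0, 7 filled genes lie below 0, and the STAM-INS minus STAM-NON panel holds no filled gene.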

How the data were processed

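The deposited files hold scanner output of Agilent Feature Extraction 11.5.1.1, in which the deposited unit is spot intensity, linear and already background-subtracted. The methods name no normalisation or array test. The labels and the methods name different RNA extraction kits. Each array was centred on the 75th percentile over all its non-control spots. That percentile was chosen after results were seen, among several settings, because its call counts matched those of an earlier processing of these files. The first setting written, over spots without outlier flags, gave 4090, 25 and 3586 calls against 4220, 24 and 3647, with Apoa4 the only member called under both. The requirement below of a value on every array was chosen the same way. Spots of 1 probe were averaged without outlier flags. Names came from a RefSeq table of GRCm38.p6, used for names and order of neighbours since the array was designed on mm9, and 27656 of 55681 probes matched. Tests took probes with a share of 0.5 or more of their spots well above background on all 3 arrays of some group, and with a value on every array. The 9 arrays were fitted with limma 3.58.1 in R 4.3.3 (lmFit, eBayes, two-sided, 6 residual degrees of freedom), with Benjamini-Hochberg adjustment over 26278 probes and a threshold of 0.05. A gene is represented by its probe with the highest mean. All 10 members are named, with list genes past the threshold in the first or second comparison (at most 4 a list and direction) and the 3 nearest profiles of the member with the widest range. The members and lists were chosen with earlier results of these data known, and the motifs after the sequences were seen. The code was tested on simulated data. The number of arrays limits the precision. The p-values set a difference between groups against the spread between mice within groups. Against Normal, that difference cannot be told apart from slide and scan. Alternatives covered scaling, background, filters, blocks, the methods' t-test and leaving out each array. Normexp used the median signal, since no mean signal column was present.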

Additional observations from a re-analysis of the deposited data

How the results depend on the processing

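For the 12 member probes, 24 alternatives were run, 1 of them (the percentile over spots without outlier flags) chosen after seeing the data, and no called value changed sign. Apoa4 was called in 16 of 24 alternatives in STAM-NON minus Normal (3.0 to 4.44, limma adjusted p 0.0054 to 0.185) and in 17 of 24 in STAM-INS minus Normal (2.28 to 3.24, adjusted p 0.0104 to 0.0979). In STAM-INS minus Normal the slide row block and leaving out STAM-INS replicate 1 gave the same result (Apoa4 3.24, limma adjusted p = 0.039). These 2 are not separate alternatives in any count out of 24 for that comparison. Over all members, 254 of 288 values in STAM-NON minus Normal kept direction and call, 8 lost a call, 9 gained one and 17 changed sign without a call. The counts were 268, 0, 0 and 20 in STAM-INS minus STAM-NON and 262, 7, 4 and 15 in STAM-INS minus Normal. The cause of the changes was not tested.

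In STAM-NON minus Normal, the count over all probes (4220) was 223 with no filter on dim probes, 2180 with 2 groups only, 15 with the slide row as a block, 30 by the methods' t-test after Benjamini-Hochberg, 7534 by it unadjusted, and 874 to 6185 with 1 array left out. The member count (1) was 0, 1, 0, 0, 4 and 0 to 4 in that order, and 2 both with probes well above background on all arrays and with trended and robust variances. In STAM-INS minus STAM-NON the count over all probes (24) was 7, 8, 13, 1, 1498 and 10 to 57, and 6 with probes well above background on all arrays, while the member count stayed 0. In STAM-INS minus Normal the count over all probes (3647) was 530 with no filter, 1973 with spike-in centring, 2157 with the slide row as a block, 8811 by the methods' t-test unadjusted and 1172 to 4495 with 1 array left out, and the member count (1) was 0 with no filter, 0 by the methods' t-test after Benjamini-Hochberg, 5 by it unadjusted and 0 to 1 with 1 array left out.

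With the replicate number as a block the counts over all probes were 2016, 6 and 1872 and the member counts 1, 0 and 0, so the Apoa4 call in STAM-INS minus Normal ended (adjusted p 0.0638). No pairing of the mice by number was seen. After group means were removed, same-numbered arrays correlated at -0.288 to 0.149, and 3 of 9 arrays correlated best with their own number. Such values cannot show that the mice were unpaired.

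The split of higher and lower calls moved with the scaling. In STAM-NON minus Normal it was 1655 and 2565 as reported, 1313 and 3387 with normexp, 1500 and 1493 with quantile, 2147 and 984 with the percentile over detected probes and 2444 and 439 with spike-in centring. In STAM-INS minus Normal it was 1355 and 2292, against 1719 and 1241 with detected probes, 801 and 2111 with the median and 1276 and 697 with spike-ins. A slide block could not be fitted.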
